A study of Mus musculus and Rattus norvegicus with 53 samples.

Results

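The comparison set Schwann cells (SCs) sorted from the distal stump of transected mouse sciatic nerve, 6 days after the cut, against SCs sorted from intact sciatic nerve, with 1 nerve behind each library. The libraries were chosen by their labels, as the single-nerve libraries called distal at day 6 or intact. They are 8 of the 53 libraries of the series: 3 of distal SCs (dSCs; D6.0, D6.1 and D6.3) and 5 of intact SCs (iSCs; I.0, I.1, I.3, I.4 and I.5), each from another animal by the labels. All 8 share the genotype. The mice, males and females aged 6 to 8 weeks, carried a Rosa26 tdTomato reporter switched on by a Cre transgene of the neural crest and SC lineage, so the sort collected any cell in which that driver had been active. The distal nerves had been transected with no other treatment, and the study took its intact nerves from the uncut side of operated animals. RNA of the sorted tdTomato+ cells was amplified by Smart-seq2, a full-length method for very small inputs, and each library is a table of raw read counts per gene. The question the comparison answers here is which of the day 6 changes seen in libraries that each pooled the nerves of 3 mice (4 distal, 4 intact) were seen again in single nerves of other libraries.

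When an axon is cut, the SCs of the distal stump lose contact with it, stop making myelin and become repair cells. Myelin is a lipid-rich wrapping built from membrane proteins such as PMP22 and MBP and from cholesterol that SCs largely synthesize themselves. Repair SCs express markers of immature SCs, secrete trophic factors and matrix, clear myelin debris and attract macrophages.

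Sequencing depth overlapped between the groups. The dSC libraries held 11703302 to 17757196 gene counts and the iSC libraries 9240883 to 18429026. Genes with a count numbered 13275 ± 1051 (SD, n = 3) for dSCs against 12775 ± 2295 (SD, n = 5) for iSCs (two-sided exact permutation test, p = 0.679, where the smallest possible p is 0.0179). I.0 and I.1 stood apart from the other iSC libraries: ribosomal precursor RNA (Rn45s) took 33.8% and 37.5% of their counts against 0.444% to 0.805% in I.3, I.4 and I.5 and 2.16% to 2.78% in dSCs, and they held the fewest genes, 10572 and 10042. The mean correlation of log2 CPM (gene counts scaled to a common library size) between libraries across the 7171 genes tested was 0.744 within dSCs (3 pairs), 0.591 within iSCs (10 pairs, 0.299 to 0.882) and 0.571 between the groups (15 pairs). Xist, the RNA of the inactive X chromosome, was above 10 CPM in 3 of 3 dSC and 1 of 5 iSC libraries. D6.0 and D6.1 also held Y-linked counts and were the only 2 of 35 single-nerve libraries with both. Xist read 203 and 130 CPM in them and the Y-linked genes summed to 104 and 103 CPM, which goes against a label of 1 nerve from 1 animal. Whether these libraries hold RNA of more than 1 animal was not tested, and sex and injury cannot be told apart here. D6.0, D6.1, I.0 and I.1 carry library codes that start with A and the other 4 libraries codes that start with C. What the letters stand for is not given in the sources used here.

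The labelled cell type was checked against its markers. Schwann cell markers (10 genes, among them Sox10, S100b, Erbb3 and Cdh19) summed to 1209 to 1828 CPM in dSCs and 1476 to 6079 CPM in iSCs, and none of the 10 was at 0 in all libraries. Fibroblast markers (11 genes, among them Dcn, Col1a1 and Col3a1) summed to more in every library, 24005 to 30996 CPM in dSCs and 23612 to 34109 CPM in iSCs. Macrophage markers (15 genes) reached 14646 CPM in D6.0, 17193 CPM in D6.1 and 3665 CPM in D6.3 against 466 to 2374 CPM in iSCs. The libraries of the 2 groups therefore do not overlap in macrophage marker level, and D6.3 lay nearest to the iSCs. Endothelial markers were lower in dSCs (483 to 1667 CPM against 1899 to 5382 CPM), as were mural markers (564 to 754 against 937 to 4517 CPM) and perineurial markers (329 to 725 against 884 to 2944 CPM). Adipocyte markers summed to 53.5 to 86.6 CPM in dSCs and 70.7 to 1546 CPM in iSCs. Markers of T cells, neutrophils, red cells and skeletal muscle did not exceed 17 CPM in any library, with Cd3e, Cd3g, Cd3d and Cd8a at 0 throughout. The 7 neuronal markers were low, but their sum was higher in every dSC library (39.6 to 102 CPM against 7.4 to 33.2 CPM). The sum was also higher in pooled nerves (42.9 to 99.7 CPM against 8.14 to 20.0 CPM). The single markers did not rise together: 4 of the 7 had no count in any dSC library, while 0 of the 7 lacked counts in all iSC libraries. With a wider filter 5 were tested, with a median log2 difference of -2.87 and none called. In such bulk samples, fewer cells of a type and less RNA per cell cannot be told apart.

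**Figure D1:**
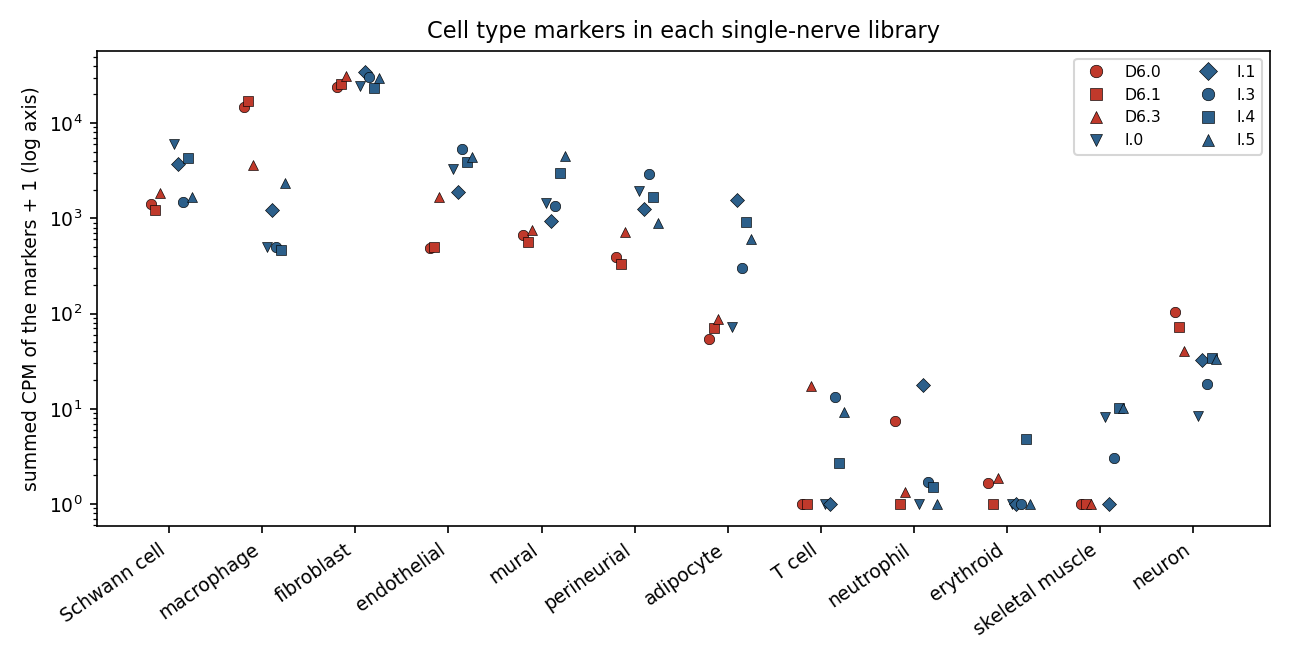
Summed CPM (plus 1, log axis) of the markers of each cell type, with 1 point per single-nerve library, dSCs in red and iSCs in blue. Macrophage markers lie between 3665 and 17193 CPM in the 3 dSC libraries and between 466 and 2374 CPM in the 5 iSC libraries, while fibroblast markers lie between 23612 and 34109 CPM in both.

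Of 7171 genes that passed the count filter, 113 (1.58%) differed between dSCs and iSCs in single nerves at an adjusted p under 0.05, by edgeR's quasi-likelihood test with Benjamini-Hochberg adjustment. Of these, 78 were higher in dSCs (1.09% of the genes tested) and 35 were lower (0.488%), and 111 of the 113 were past 2.5-fold (1.55%). The groups did not overlap for 71 of the 78 higher and 30 of the 35 lower genes, against 6.16% above, 4.64% below and 10.8% in either direction among all genes tested. All 113 kept their direction among the libraries of letter A (2 against 2) and among those of letter C (1 against 3), each taken alone. The 113 genes were chosen on these same 8 libraries, so neither their direction within a letter nor their lack of overlap is independent support. The number of calls rested on the distal libraries: it was 25 without D6.0 and 26 without D6.1, but 114 without D6.3. It was 1 without D6.0 and D6.1 together. A fit of the 8 libraries alone, in which the filter kept 6452 genes and left out 31 of the 113, called 5 genes, 4 of them among the 113 (Ngfr, Ctss, Gpc1 and H19).

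A set of 17 genes was called whichever of the 8 libraries was left out, 15 of them higher and 2 lower in dSCs. The higher ones include the matrix and adhesion genes Tnc, Fbn2, Gpc1, Tenm3 and Cd44, the neurotrophin receptor gene Ngfr, the imprinted RNA H19 and genes of phagocytes such as Lyz2, Ctss, C1qb, Fcgr2b and Myo1f. The others were Npl (an enzyme that breaks down sialic acid), the phosphate-linked sugar transporter gene Slc37a2 and the proteasome activator gene Psme4. The 2 lower ones were Pmp22, a membrane protein of compact myelin, and Idi1, an enzyme of cholesterol synthesis.

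Tnc encodes tenascin C, a matrix glycoprotein, and lies on chromosome 4 from 63620819 to 63681760 (build NCBIM37, minus strand). It read 836, 792 and 682 CPM in D6.0, D6.1 and D6.3 and 1.88, 0.205, 8.94, 30.6 and 13.5 CPM in I.0, I.1, I.3, I.4 and I.5. Every dSC library lay far above every iSC library, and the difference was 6.11 ± 0.86 (SE) on the log2 scale, or 68.9-fold (adjusted p = 1.6e-04). In the pooled nerves the difference was 7.10 ± 0.57 (adjusted p = 1.2e-04). Fbn2, which encodes the microfibril protein fibrillin 2, had the most even dSC values of the set. Its dSC values were 204, 207 and 202 CPM and its iSC values 4.17, 9.65, 9.17, 5.03 and 4.74 CPM. The log2 difference of 4.97 ± 0.55 (adjusted p = 1.8e-06) lay next to that of 5.04 ± 0.61 in pooled nerves (adjusted p = 6.7e-04). Ngfr, the p75 receptor and a standard marker of immature and repair SCs, read 1278, 1195 and 578 CPM in dSCs and 38.3, 52.1, 29.6, 131 and 59.6 CPM in iSCs, again without overlap. Its difference was 4.03 ± 0.79, or 16.4-fold (adjusted p = 0.0069; 4.76 within letter A and 3.21 within letter C), against 2.65 ± 0.47 in pooled nerves (adjusted p = 0.0056). Gpc1, a cell-surface proteoglycan, read 405, 378 and 222 CPM in dSCs and 12.3 to 40.1 CPM in iSCs, a difference of 3.74 ± 0.69 (adjusted p = 0.0036). Cd44, the hyaluronan receptor, showed the smallest rise of the set at 1.79 ± 0.35 (adjusted p = 0.0071), with 315, 297 and 345 CPM in dSCs against 59.1 to 132 CPM in iSCs.

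**Figure D2:**
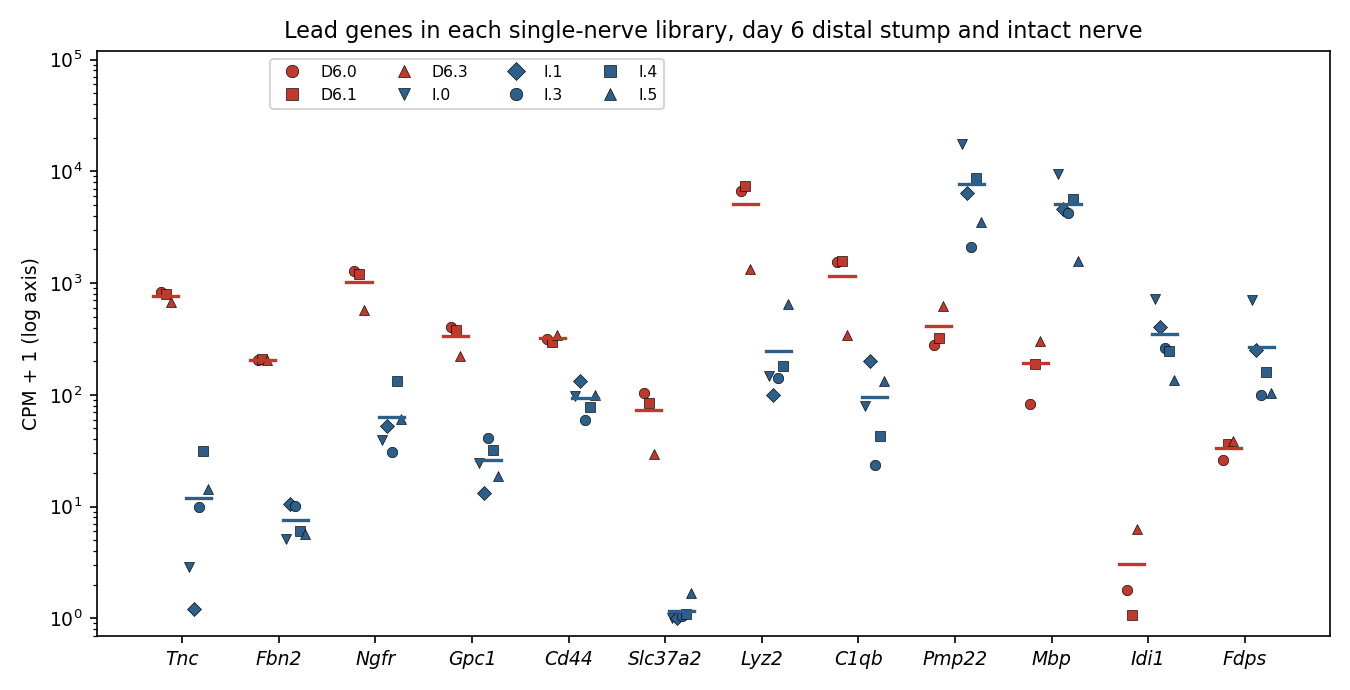
CPM plus 1 (log axis) of 12 genes in each single-nerve library, with dSC libraries in red, iSC libraries in blue and the group mean as a bar. The groups do not overlap for any of the 12. Fbn2 lies between 202 and 207 CPM in all 3 dSC libraries, while Lyz2 and C1qb are lower in D6.3 than in D6.0 and D6.1.

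Of the 30 genes listed for repair and immature SCs, 15 were tested, 3 rose (Tnc, Ngfr and Nes) and none fell. The median log2 difference of the 15 was 1.29, beside -0.11 over all genes tested. Nes, the intermediate filament gene nestin, rose by 2.52 ± 0.58 (adjusted p = 0.021) with 293, 200 and 150 CPM in dSCs against 6.36 to 71.2 CPM in iSCs. The filter asked for 100 counts in at least 85% of the 35 single-nerve libraries and left out genes that are silent in many of them, also those that are low in most injured nerves. With a wider filter, 15519 genes were tested, of which 74 (0.477%) were called higher and 12 (0.0773%) lower, and 6 of the 29 repair genes tested rose. The same filter lowered the calls of other lists described below, from 6 to 4 for matrix, from 3 to 1 for lysosome, from 2 to 0 for junction and from 2 to 1 for glycolysis genes. The 3 further repair genes were Runx2, Shh and Btc. Shh, which encodes the ligand Sonic hedgehog, read 73.7, 89.3 and 27.9 CPM in dSCs and 0.411 to 3.09 CPM in iSCs (log2 difference 5.39, adjusted p = 0.013). Btc, which encodes the EGF-family ligand betacellulin, read 135, 145 and 40.4 CPM in dSCs and 0 to 8.21 CPM in iSCs (adjusted p = 0.015). Runx2, a transcription factor, read 115, 94.5 and 42.0 CPM in dSCs and 0 to 3.77 CPM in iSCs (adjusted p = 0.0087). Gdnf, a trophic factor for motor neurons, read 39.5, 57.7 and 8.76 CPM in dSCs and 0 to 2.72 CPM in iSCs. Its groups did not overlap, yet it did not pass (adjusted p = 0.14). Sox2 and Olig1, transcription factors of immature glia, did not pass either. Jun, the AP-1 subunit that drives the repair state, read 946, 876 and 440 CPM in dSCs and 176, 27.9, 753, 774 and 576 CPM in iSCs. The low values were those of I.0 and I.1, the groups overlapped, and the difference of 0.71 ± 0.71 did not pass (adjusted p = 0.70). A separate list held 20 immediate early genes that dissociation of tissue is known to induce. Of the 16 tested, only Fosl2, which encodes another AP-1 subunit, was called. It rose by 2.62 ± 0.56 (adjusted p = 0.013), with 200, 114 and 184 CPM in dSCs against 1.64 to 48.7 CPM in iSCs. The list had a median of 0.72, which was 1.68 within letter A and -0.61 within letter C. In pooled nerves 1 gene of this list rose and 4 fell. The part of dissociation in these values was not tested.

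Of 50 extracellular matrix genes, 49 were tested, 6 rose and none fell, with a median log2 difference of 0.93. In 20 of the 49 the dSC libraries all lay above the iSC libraries, against 6.16% of all genes tested. Besides Tnc, the genes that rose were Col18a1, Thbs2, Vcan, Fn1 and Col8a1, which encode a basement membrane collagen, thrombospondin 2, versican, fibronectin and a short-chain collagen. All 6 rose in the pooled nerves too. Col18a1 read 996, 980 and 914 CPM in dSCs and 27.7, 50.3, 262, 174 and 131 CPM in iSCs, and differed by 2.90 ± 0.74 (adjusted p = 0.039). Of the 8 fits that left out 1 library, Tnc was called in 8 and Vcan in 7, but Fn1 and Thbs2 in 2 and Col18a1 and Col8a1 in 1. Among the 14 tested genes of the epithelial-mesenchymal transition list, 2 rose: Cd44 and Vim, the intermediate filament gene vimentin (1.84 ± 0.37, adjusted p = 0.0078). Cdh1, which encodes E-cadherin, did not pass the filter and read 0, 0 and 0.0492 CPM in dSCs and 3.09 to 51.4 CPM in iSCs (adjusted p = 0.21 with the wider filter). Cdh2, which encodes N-cadherin, did not pass (-0.75 ± 0.71, adjusted p = 0.68).

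Genes of myelin and cholesterol were among those that fell. Of 20 myelin membrane genes, 11 were tested, 3 fell (Pmp22, Mbp and Cd9) and none rose, with a median log2 difference of -1.66. Pmp22 (chromosome 11, 62942484 to 62973049, plus strand, NCBIM37) read 278, 323 and 628 CPM in dSCs and 17504, 6418, 2093, 8710 and 3502 CPM in iSCs. Although iSC values spread widely, all of them lay above all dSC values, and the difference was -4.22 ± 0.71 (adjusted p = 8.9e-04). It was -5.14 among libraries of letter A and -2.67 among those of letter C. Mbp, a structural protein of the compact sheath, read 82.1, 190 and 302 CPM in dSCs and 9413, 4598, 4250, 5709 and 1585 CPM in iSCs (-4.74 ± 1.13, adjusted p = 0.025). Its call was lost without I.0 and without any 1 of the dSC libraries. Cd9, a tetraspanin of myelinating SCs, read 490, 684 and 641 CPM in dSCs. In iSCs it read 17452 and 13404 CPM in I.0 and I.1 and 987 to 1756 CPM in the other 3, and the fall of -3.54 ± 0.83 (adjusted p = 0.024) was -4.72 within letter A, which holds I.0 and I.1, and -1.12 within letter C. Its call was lost without the same libraries as that of Mbp. Prx, the periaxin gene, read 6.69, 9.34 and 95.6 CPM in dSCs and 191 to 596 CPM in iSCs. It was dropped by the filter because it is low in injured nerves, and with the wider filter it was tested and did not pass (-3.00, adjusted p = 0.31). That filter tested 19 genes of the list and called 3 lower, with a median of -2.22. No gene of the 12 tested myelin transcription factors passed the test in edgeR (3 at an unadjusted p under 0.05, 1 called by DESeq2). Of these 12, 10 had a difference above 0, with a median of 0.59 (1.55 within letter A and 0.65 within letter C). In pooled nerves the 17 tested had a median of -0.87, and 4 fell and 0 rose. The sign was the same in both experiments for 7 of the 12. Egr2, the factor that switches myelination on, read 104, 58.3 and 81.6 CPM in dSCs and 88.9, 5.95, 71.1, 137 and 49.6 CPM in iSCs (0.20 ± 0.81, adjusted p = 0.94). Sox10, which marks the SC lineage, differed by 1.40 ± 0.64 (adjusted p = 0.29).

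All 15 tested genes of cholesterol synthesis and uptake had a lower fitted level in dSCs, with a median log2 difference of -1.55 (-2.67 within letter A and -0.80 within letter C). Only Idi1 and Fdps, which encode successive enzymes on the way from isopentenyl diphosphate to farnesyl diphosphate, passed the test. Idi1 read 0.776, 0.0826 and 5.36 CPM in dSCs and 718, 402, 260, 244 and 135 CPM in iSCs. It showed the largest fall of all genes called, -7.38 ± 1.22 (adjusted p = 8.9e-04). Fdps read 25.1, 35.2 and 37.8 CPM in dSCs and 709, 252, 98.1, 160 and 103 CPM in iSCs (-3.01 ± 0.60, adjusted p = 0.0077). The call of Fdps was lost without D6.0 and without D6.1, while DESeq2 called 8 genes of the list. Tmem97, a sterol-regulated membrane protein gene outside the list, read 1.25, 1.90 and 15.1 CPM in dSCs and 209, 33.3, 36.6, 49.5 and 34.3 CPM in iSCs (-3.57 ± 0.87, adjusted p = 0.030), a call that was lost without D6.0, D6.1 or I.0. With the wider filter Tmem97 missed the threshold (adjusted p = 0.054). Srebf2, which encodes the factor that switches on this pathway, read 16.7, 27.7 and 39.0 CPM in dSCs and 49.2 to 115 CPM in iSCs without overlap, and did not pass (-1.66 ± 0.51, adjusted p = 0.091). Since the genes of the pathway lay on the same side, the 100 bases just upstream of the start site are shown for Idi1 and Tmem97, from RefSeq on build GRCm38.p6, with copies of the CCAAT box (CCAAT, searched on both strands, so that it can read ATTGG) in capitals. This box binds NF-Y, a factor known to act beside SREBP at sterol-regulated promoters.
Idi1, chr13:8885506-8885605, plus strand: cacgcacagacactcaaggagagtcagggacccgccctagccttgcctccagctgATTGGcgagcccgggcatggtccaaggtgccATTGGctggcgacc
Tmem97, chr11:78550736-78550835, minus strand: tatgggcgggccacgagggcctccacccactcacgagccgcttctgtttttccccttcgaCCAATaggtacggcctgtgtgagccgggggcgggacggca
The box occurred 2 times in the window of Idi1 and 1 time in that of Tmem97. It is common, with at least 1 copy in 37.9% of all 27025 promoters of the RefSeq table (250 bases before to 50 after the start). The letters of a sterol regulatory element (TCACNCCAC, searched on both strands), which 1.22% of all promoters hold, are in neither window and in the promoter of no gene called lower that had an entry (25 of 35). Of the 23 listed cholesterol genes, only 16 had an entry there. Among these 16, the promoters of 14 held the CCAAT box and that of 1, Hmgcs1, the sterol element. The box was in 12 of the 25 genes called lower with an entry and in 20 of the 59 called higher. The matches describe letters and not bound sites.

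Lipid genes outside cholesterol synthesis did not pass: of 18 tested genes of fatty acid and sphingolipid synthesis none was called by edgeR (3 at an unadjusted p under 0.05) or DESeq2, with a median of -0.65. The 40 genes of oxidative phosphorylation had a median of -0.73 with 39 below 0 and none called by edgeR (6 at an unadjusted p under 0.05) or DESeq2. This median was 0.16 within letter C and turned to 0.21 when I.0 and I.1 were left out. Among 17 genes of glycolysis and the hypoxia response, 2 fell: Slc2a1, which encodes the glucose transporter GLUT1 (-2.76 ± 0.57, adjusted p = 0.0099), and Slc16a1, which encodes the lactate transporter MCT1 (-2.17, adjusted p = 0.049, called in 2 of the 8 fits that left out 1 library). With the wider filter Slc16a1 missed the threshold (adjusted p = 0.080). Slc2a1 read 131, 67.0 and 195 CPM in dSCs and 1288, 556, 1363, 720 and 495 CPM in iSCs. It is also a perineurial marker, and the summed perineurial markers were lower in every dSC library. Their part in this fall was not tested. Among 18 tested junction genes, Cldn5 (-3.41 ± 0.84, adjusted p = 0.031) and F11r (-2.40 ± 0.56, adjusted p = 0.023) fell. With the wider filter their adjusted p was 0.058 and 0.052. Cldn5 is the claudin of endothelial cells, whose summed markers were lower in dSCs. The other 9 endothelial markers all had fitted differences below 0 with no call by edgeR, while DESeq2 called 3 of the 10, and their part in the fall of Cldn5 was not tested.

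Other genes that fell were picked after their values were seen and form no group. Ndrg1, mutated in a demyelinating neuropathy, read 267, 176 and 448 CPM in dSCs and 1967, 1031, 1265, 1334 and 532 CPM in iSCs (-2.04 ± 0.48, adjusted p = 0.022), and its relative Ndrg2 differed by -2.59 ± 0.48 (adjusted p = 0.0036). Both fell in pooled nerves as well. Scn7a, a sodium channel gene of non-myelinating SCs, read 89.8, 20.0 and 157 CPM in dSCs and 1114, 792, 115, 531 and 130 CPM in iSCs, so that D6.3 overlapped the iSCs (-2.59 ± 0.64, adjusted p = 0.031). Of 6 tested Schwann cell markers edgeR called this 1 and DESeq2 called 2. With the wider filter Scn7a, Ndrg1, Cav1 and Tagln missed the threshold, as did Fam26e and Trf, described below (adjusted p = 0.067 and 0.070). The caveolin genes Cav1 and Cav2 differed by -2.55 ± 0.63 and -2.83 ± 0.62 (adjusted p = 0.031 and 0.015), with Cav2 at 80.2 to 157 CPM in dSCs and 731 to 1005 CPM in iSCs. Tagln, a smooth muscle gene (-3.14 ± 0.80, adjusted p = 0.037), and Fhl1, a LIM domain gene of muscle (-3.10 ± 0.62, adjusted p = 0.0077), fell where the summed mural markers were lower too, and the part of those markers was not tested. Fam26e read 1.91, 27.1 and 13.3 CPM in dSCs against 447 CPM in I.0 and 44.0 to 117 CPM in the other iSCs (-3.44 ± 0.87, adjusted p = 0.036). Its call was lost without I.0. Without D6.0 only 2 lower genes were called, Pmp22 and Idi1, so every other fall called in single nerves lost its call in that fit. In the other direction, Trf, which encodes the iron carrier transferrin, rose from 13.1 to 244 CPM in iSCs to 2102, 2392 and 2948 CPM in dSCs (4.17 ± 1.11, adjusted p = 0.049). Ptx3, which encodes a secreted pattern recognition protein, read 175, 119 and 36.8 CPM in dSCs and 0.135 to 14.2 CPM in iSCs (4.31 ± 0.98, adjusted p = 0.019). Trf and Ptx3 were called in pooled nerves too, but the single-nerve call of Trf was lost in all 8 fits that left out 1 library and that of Ptx3 without D6.0 or D6.1.

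Genes of phagocytes were among those that rose. Of 13 tested macrophage markers, 8 rose (Lyz2, Csf1r, C1qb, Cd68, C1qc, Cd74, Emr1 and C1qa), against 1.09% of all genes, and all 13 had a positive difference with a median of 3.05 (4.75 within letter A and 2.10 within letter C). Lyz2, a lysozyme gene, read 6627, 7349 and 1338 CPM in dSCs and 147, 98.7, 141, 180 and 650 CPM in iSCs (4.39 ± 0.68, adjusted p = 6.9e-04). C1qb, a subunit of complement C1q, read 1541, 1571 and 340 CPM in dSCs and 77.7, 202, 22.5, 42.0 and 131 CPM in iSCs (3.60 ± 0.59, adjusted p = 8.9e-04). Csf1r, which encodes the receptor for the macrophage growth factor CSF1, read 449, 811 and 150 CPM in dSCs and 12.3 to 69.3 CPM in iSCs (3.71 ± 0.74, adjusted p = 0.0077). All 13 markers were lowest in D6.3 among the dSCs, where their median level was 22.5% of the mean of D6.0 and D6.1. The whole set of 78 higher genes was less uneven: D6.3 was lowest for 57 of them, at a median of 55.4% of the mean of the other 2 libraries. Other genes of myeloid cells among the 78 were Nckap1l, Fyb, Ms4a7, Mpeg1, Cybb, Trem2, Plek, Laptm5 and Spi1. None of these is among the 17 genes called whichever library was left out. Of the 8 fits that left out 1 library, Fyb and Ms4a7 were called in 7, the call being lost without D6.1. Mpeg1 and Cybb were called in 6 of these fits, Nckap1l in 5, and Trem2 and Plek in 2. In pooled nerves 3 of the 8 macrophage markers rose (Cd68, C1qa and C1qc), and the 15 tested there had a median of 2.02.

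Of 28 tested lysosome, phagocytosis and lipid efflux genes, 3 rose, with a median of 1.06. Apoe, a lipid carrier made by SCs and macrophages after injury, read 16171, 15908 and 4569 CPM in dSCs and 1843, 1181, 863, 3570 and 1341 CPM in iSCs (2.80 ± 0.67, adjusted p = 0.029). Ctsd and Ctsb, which encode lysosomal proteases, differed by 2.14 ± 0.54 and 1.91 (adjusted p = 0.037 and 0.049). Each of the 3 was called in 2 of the 8 fits that left out 1 library. These 3 were also lowest in D6.3, as the macrophage markers were, and what part those markers had in their rise was not tested. Values that were not lower in D6.3, in 3 genes picked to show this, were those of Tenm3, H19 and Igf1. Tenm3 read 318, 338 and 363 CPM, H19 427, 346 and 386 CPM and Igf1 555, 713 and 944 CPM in D6.0, D6.1 and D6.3. Tenm3, a teneurin adhesion gene, differed by 3.59 ± 0.60 (adjusted p = 8.9e-04), H19 by 3.39 ± 0.54 (adjusted p = 7.2e-04) and Igf1, a growth factor gene, by 1.65 ± 0.34 (adjusted p = 0.0099).

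Several lists held no call by edgeR. The 17 tested mitosis genes had a median of 1.21 (3 at an unadjusted p under 0.05), the 19 of DNA replication -0.05 (3 such genes), the 26 of the MYC network and ribosome biogenesis 0.28 (0) and the 22 of the interferon response -0.63 (2), and DESeq2 called 0 genes in each. With the wider filter 1 of 38 mitosis genes was called (median 1.38), and the median of DNA replication turned to 0.57 over 32 genes. The 12 genes of immune recruitment had a median of -0.17 (5 at an unadjusted p under 0.05, 2 called by DESeq2), which turned to 1.19 over the 25 tested with the wider filter, and the 15 of axon-glia adhesion 0.68 (4 and 1). Ccl2, the chemokine that attracts monocytes, read 400, 591 and 44.7 CPM in dSCs and 135, 94.0, 15, 27.3 and 81.7 CPM in iSCs. D6.3 lay within the range of the iSCs, and the difference of 2.29 ± 1.02 did not pass (adjusted p = 0.28). Myc differed by 0.29 ± 0.81 (adjusted p = 0.91), with 0 and 10.7 CPM in I.0 and I.1 and 35.0 to 58.3 CPM elsewhere.

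**Figure D3:**
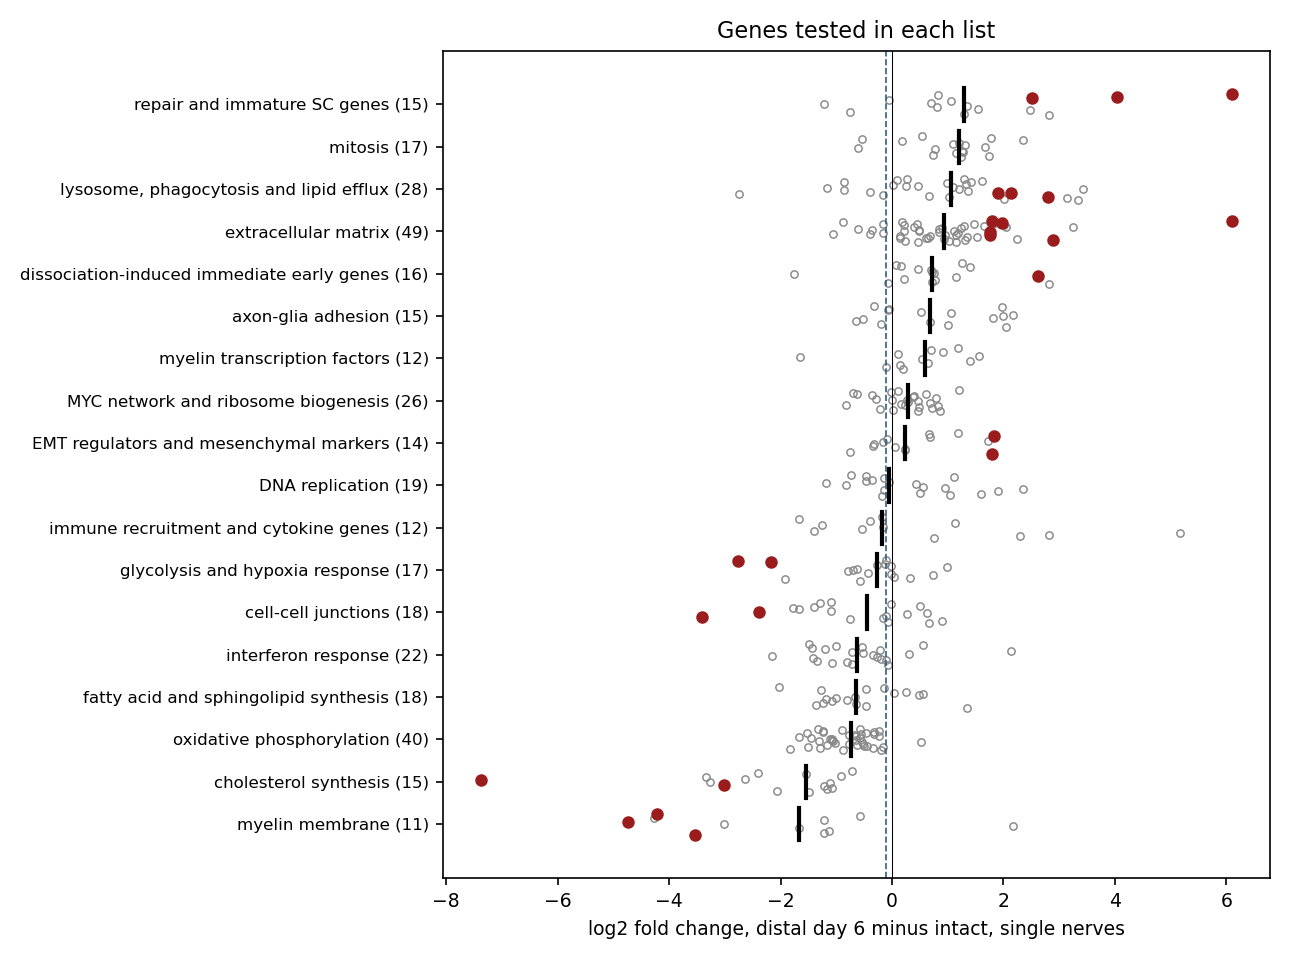
Log2 difference, dSCs minus iSCs in single nerves, for each tested gene of each list (number tested in parentheses). Filled points passed the test, the black bar is the median of the list, and the dashed line marks the median of all genes tested at -0.11. Medians run from -1.66 for myelin membrane genes to 1.29 for repair genes.

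The single nerves repeat a comparison made in pooled nerves, with no library in common. In pooled nerves 732 of 13751 genes were called (5.32%), 362 higher (2.63%) and 370 lower (2.69%). Of these, 544 were among the 7171 genes tested in single nerves (7.59%; 290 higher, 4.04%, and 254 lower, 3.54%) and 188 did not pass the filter there. Of the 113 genes called in single nerves, 56 (49.6%) were also called in pooled nerves, 40 higher and 16 lower, and none was called in the opposite direction. They are 10.3% of the 544 pooled calls. All 113 single-nerve calls had the same sign in pooled nerves, as did 434 (79.8%) of the 544 pooled calls in single nerves and 60.0% of all 7171 genes. Across the 7171 genes, which are not independent, the log2 differences of the experiments correlated with a Pearson r of 0.48 and a Spearman rho of 0.36. The genes called in pooled nerves were chosen on their pooled values, and these were larger than those of the repeat: the 290 genes that rose in pooled nerves had a median of 0.74 in single nerves against 1.58 in pooled nerves, and the 254 that fell had -0.88 against -1.87. Of the 544 pooled calls, 193 (35.5%) had an unadjusted p under 0.05 in the same direction in single nerves. The number called in both was 13 without D6.0, 14 without D6.1 and 28 without I.0 and I.1.

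**Figure D4:**
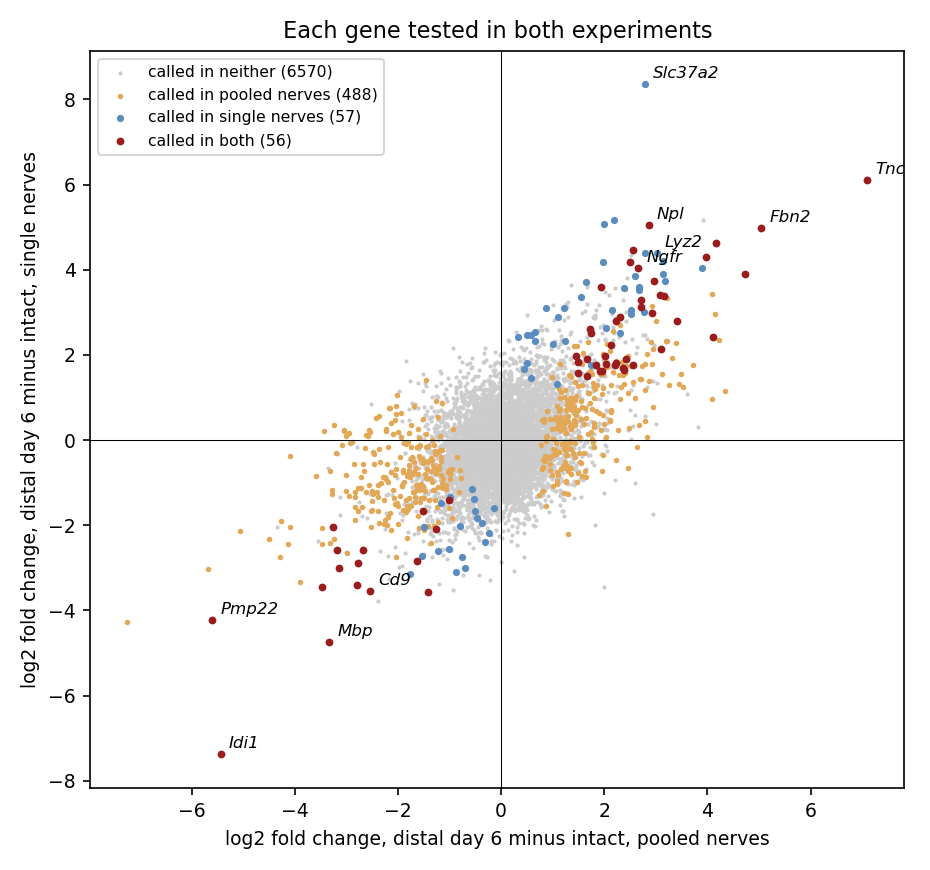
Log2 difference, dSCs minus iSCs, in pooled nerves (x axis) and single nerves (y axis) for the 7171 genes tested in both, coloured by where a gene was called. The 56 genes called in both all have the same sign on both axes, and most of the 488 called in pooled nerves alone lie nearer to 0 on the y axis than on the x axis.

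The genes called in both were led by Tnc, Npl, Fbn2, Fyb and Cd83 among those that rose and by Idi1, Mbp, Pmp22, Tmem97 and Cd9 among those that fell. Npl read 116, 119 and 36.6 CPM in dSCs against 0 to 8.64 CPM in iSCs, a log2 difference of 5.04 ± 0.83 in single nerves and 2.86 ± 0.46 in pooled nerves. Cd83, an activation marker of antigen-presenting cells, read 285, 443 and 24.8 CPM in dSCs and 0, 0, 7.96, 5.03 and 42.9 CPM in iSCs, so D6.3 fell inside the iSC range. Its call (4.47 ± 1.18, adjusted p = 0.049) was lost in 6 of the 8 fits that left out 1 library. By list, both experiments called 3 myelin membrane, 2 cholesterol, 3 repair, 6 matrix and 3 lysosome genes. In the pooled nerves these lists held 17 of 19, 16 of 22, 7 of 29, 13 of 50 and 13 of 32 genes called in that direction. In the opposite direction pooled nerves called 5 repair, 3 matrix and 1 lysosome gene, which were not called in single nerves. Axon-glia adhesion genes had a median of -1.49 in pooled nerves (7 of 26 fell) and 0.68 in single nerves (0 of 15 called). Of those 15, 7 had the same sign in both. Fatty acid and sphingolipid genes had -1.66 in pooled nerves (7 of 23 fell) and -0.65 in single nerves (0 called). Schwann cell markers had -2.37 in pooled nerves (6 of 10 fell) and -0.22 in single nerves (1 of 6 fell). Of the mitosis genes, 22 of 38 rose in pooled nerves, where their median was 3.42. Of the 17 tested in single nerves, 10 were called in pooled nerves and 0 in single nerves.

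A test of the difference itself, on all 47 mouse libraries, called 2 genes of 7171 (0.0279%), with 461 at an unadjusted p under 0.05. Without 1 library it called 0 or 1 gene, except 2 without I.0 and 7 without D6.3. Slc37a2 rose more in single than in pooled nerves. It read 102, 83.9 and 28.6 CPM in dSCs and 0, 0, 0.0577, 0.105 and 0.698 CPM in iSCs (8.35 ± 0.86, adjusted p = 6.7e-07), while in pooled nerves it averaged 58.4 CPM in dSCs and read 3.74, 1.27, 3.56 and 25.5 CPM in iSCs (2.78 ± 0.77, adjusted p = 0.055). The highest of these 4 was in the pooled iSC library with the most macrophage markers (9376 CPM), whose part in the difference was not tested. The difference between the experiments was 5.59 ± 1.07 (adjusted p = 0.037). Scd2, a stearoyl-CoA desaturase that makes unsaturated fatty acids, fell in pooled nerves (-2.23 ± 0.32, adjusted p = 0.0017) and not in single nerves, where it read 484, 354 and 739 CPM in dSCs and 509, 462, 342, 665 and 221 CPM in iSCs (0.26 ± 0.38, adjusted p = 0.80). Its difference between the experiments was 2.57 ± 0.51 (adjusted p = 0.037). In pooled nerves Egr2 and Sox10 fell (-3.43 ± 0.40 and -1.46 ± 0.39). The difference between the experiments was 3.69 ± 1.02 for Egr2 and 2.94 ± 0.83 for Sox10, and neither passed (adjusted p = 0.36 for both). In simulated data this test found 3 of 200 genes made to differ 4-fold among 7353, and the single-nerve test 65 of 200 among 7171, so most genes without a call cannot be said to be alike in both experiments.

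Day 6 dSCs were also set against dSCs of days 4 and 8. Against day 4 edgeR called no gene of 7171 (0%), with 164 at an unadjusted p under 0.05, and against day 8 none was called, with 58. DESeq2 called 0 in both. For the genes above, Tnc differed by 0.68 from day 4 and by -0.10 from day 8, Fbn2 by -0.04 and 0.56, and Pmp22 by 0.27 and -0.06. These values on the log2 scale were small beside those against iSCs. Idi1 differed by more, -2.40 from day 4 and -2.78 from day 8, without passing the test.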

How the data were processed

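SCs were sorted for tdTomato and sequenced after Smart-seq2, which does not keep strand, so reads of overlapping antisense genes cannot be told apart. Per the study's methods and processing notes, the authors aligned reads to mm9 with TopHat2 2.0.11 and made the deposited raw counts per gene with HTSeq. These counts were analysed as deposited (lanes of a pooled library summed; ERCC spike-in and unassigned rows left out) in R 4.3.3 with edgeR 4.0.16. For single nerves, genes with at least 100 counts in at least 85% of 35 libraries were kept, and 1 quasi-likelihood fit with TMM scaling and a group per region and day gave distal day 6 minus intact. Pooled nerves (12 libraries, 3 mice each) were fitted with filterByExpr, and the difference between experiments in 1 fit of 47 libraries. Genes were called at a Benjamini-Hochberg adjusted p under 0.05. SE is the log2 difference over the square root of F. CPM used TMM-scaled library sizes. Total counts of 9240883 to 18429026 bound the precision of low genes. The p-values of the single-nerve tests rest on a spread estimated from all 35 libraries and not from the 8 compared alone. DESeq2 1.42.0, other filters and scalings and omission of libraries were tried. The fits were tested on simulated counts. Hmgcs1, Pax3 and 4 globin genes were listed at 0 in every mouse library and Ly6g was not found. The libraries, gene lists and tests were chosen with earlier results of these data known. Genes were named if the study names them, if they were among the 10 largest rises or falls called without overlap, among the 2 largest of a list in each direction, among the 5 largest called in both experiments, or called by the test between experiments. The set of 17 genes, the wider-filter calls and genes named outside the rule (other myeloid genes, the genes that fell outside the lists, Trf) were chosen after their values were seen, as were 3 alternatives (the 8 libraries with the wider filter, omission of D6.0 and D6.1 together, and library sizes without Rn45s). Some genes are not reported here. The labels and files hold 5 intact nerves, 1 more than the study's methods count, and all 5 were used. Of the library codes, 3 occur on an intact and on a day 2 distal library that the labels give to other animals, and these libraries were fitted as independent. Rat libraries and the bridge were not analysed here.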

Additional observations from a re-analysis of the deposited data

Results flagged for a closer look

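In groups of 5 iSC libraries, 13 of 56 sets of values had 1 library far from the rest. The cut used gives about 1 in 20 for independent, normally distributed values. These sets share the same libraries and hold skewed CPM values, so no excess over chance can be read from the count. The figure given is the gap to the nearest other library as a share of the whole range. I.4 was the high library for Prx (0.717), Sox10 (0.717), Gdnf (0.963) and Olig1 (1, the only library with a count) and for erythroid markers (1). I.5 was high for Slc37a2 (0.85), Lyz2 (0.852) and Cd83 (0.814). I.0 was high for Sox2 (0.766), Tmem97 (0.908), Fam26e (0.818) and Fdps (0.748). I.1 was high for neutrophil markers (0.959). Without I.0, the calls of Tmem97 and Fam26e were lost, and that of Fdps was kept.

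The distal effect differed between single and pooled nerves, by the test of that difference, for Slc37a2 (5.59, single minus pooled on the log2 scale) and Scd2 (2.57).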

How the results depend on the processing

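Against 113 calls (78 higher, 35 lower), DESeq2 gave 359 (174, 185; 48.5% higher against 69.0%), the 8 libraries alone 5 (5, 0) or, with the wider filter, 4 (3, 1), and omission of I.0 and I.1 68 (13 lower). Lower calls alone moved with filterByExpr (12), no filter (14) and the letter of the code as a covariate (59). With the 2 distal libraries holding Xist and Y-linked counts left out, 1 gene was called (1, 0). The labels gave same-numbered libraries to different animals, so these were not taken as pairs. Same-numbered libraries deviated together with r = 0.007, 0.142 and 0.166, against -0.148 to 0.106 for other-numbered ones. The highest values, 0.142 and 0.166, were thus those of same-numbered libraries, which also share the letter of their code. They do not settle whether these libraries are paired. With the replicate block, 203 genes were called (116 higher, 87 lower) and 287 in pooled nerves. Leaving out 1 library at a time gave 25 to 116 calls (23 to 79 higher, 2 to 39 lower; 14 and 22 lower without I.0 and I.4).

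Pooled calls (732) were 1393 by DESeq2 and 310 to 1007 without 1 library. Genes called in both (56) were 162 by DESeq2, with 2 opposite, 4 from the 8 libraries, 28 without I.0 and I.1 and 13 to 62 without 1 library. The share of pooled calls with the same sign (79.8%) was 75.5% by DESeq2, 86.2% without I.0 and I.1, 85.5% past 2.5-fold and 76.9% to 86.3% without 1 library. The 2 genes that differed between experiments became 0 with 16 libraries, 1 with DESeq2 size factors, 0 without I.0 and I.1 and 0 to 7 without 1 library. Day 6 against day 4 gave 0 to 1 calls without 1 library, and against day 8 0.

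Of the genes called, Cd14 turned its sign (-0.24 with D6.3 as the only dSC library). Signs also turned for named genes that had not passed: Egr2 (-0.065 to 0.60 without 1 library, with -0.0036 without D6.0, and -0.061 without I.0 and I.1), Myc (-0.33 without I.0 and I.1), Scd2 (-0.054 without D6.3, up to 0.54 without D6.1), and Jun (-0.062) and Ccl2 (-0.63) from D6.3 alone. The cause was not tested. With 3 distal nerves, 2 of which held Xist and Y-linked counts, most calls rest on D6.0 and D6.1.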
